A study of Homo sapiens with 22 samples.

Results

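Lysine acetyltransferases place the acetyl groups that histone deacetylases remove, and 10 of their genes were followed in a study of HDAC6, a deacetylase found mostly in the cytoplasm, where tubulin is a substrate. The genes were taken by symbol, EP300, CREBBP, KAT2A, KAT2B, KAT5, KAT6A, KAT6B, KAT7, KAT8 and HAT1, and all 10 were found among the 26485 symbols counted. RNA sequencing was done on 22 libraries, all labelled MDA-MB231, an established line of human breast cancer of the triple-negative type. In the first experiment 2 libraries came from cells given Nexturastat A, a hydroxamate inhibitor of HDAC6, at 7.65 µM for 2 days, and 2 from control cells (Ctrl), whose treatment is labelled DMSO. In the second, hairpins against HDAC6 (shHDAC6-1 and shHDAC6-2, 3 libraries each, genotype labelled as a knockdown) were set against a control hairpin (shCtrl, 3 libraries), all at day 0. In the last, cells given HPOB or Tubastatin A, both HDAC6 inhibitors, were set against DMSO, with 3 libraries each at day 2. The titles of the Tubastatin A libraries read TSA, letters that also abbreviate trichostatin A, and the treatment label was followed. Doses of HPOB and Tubastatin A, and whether the cells of the drug experiments carried anything beyond the wild-type genotype of their labels, are not stated in the sources used here. No label says that replicates were separate cultures, so p-values measure only the spread between these libraries, which may be technical.

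EP300 (p300) and CREBBP (CBP) are paralogous coactivators that acetylate histone tails at enhancers and promoters and bind many transcription factors. KAT2A (GCN5) and KAT2B (PCAF) are paralogs that work within the SAGA and ATAC complexes, KAT5 (TIP60) within the TIP60 complex, KAT6A (MOZ), KAT6B (MORF) and KAT7 (HBO1) with BRPF or JADE scaffold proteins, and KAT8 (MOF) within the MSL and NSL complexes. HAT1 differs from the others in acetylating newly made histone H4 before it is built into chromatin. Deacetylase inhibitors shift the balance between these enzymes and the deacetylases, and the comparisons ask whether mRNA of the acetyltransferases themselves moved with it.

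Stretches just before the transcription start are printed for CREBBP and HAT1. With Nexturastat A their mRNA was lower by more than 1 on the log2 scale, as part of a group that moved together with that compound. KAT6B was lower by more than 1 as well (-1.28), but its windows lie mostly in annotated exons and are not printed. They are RefSeq sequences of GRCh38.p14, 5′ to 3′ on the gene's strand, and end where the first exon annotated by GENCODE begins. CREBBP's lies at chr16:3880727-3880963 (minus strand) and HAT1's at chr2:171922211-171922447 (plus strand). Capitals mark matches, on either strand, to the GC box GGGCGG, the box called CCAAT, the cAMP response element core TGACGT, the E-box letters CACGTG or the ETS motif CCGGAAG.
CREBBP: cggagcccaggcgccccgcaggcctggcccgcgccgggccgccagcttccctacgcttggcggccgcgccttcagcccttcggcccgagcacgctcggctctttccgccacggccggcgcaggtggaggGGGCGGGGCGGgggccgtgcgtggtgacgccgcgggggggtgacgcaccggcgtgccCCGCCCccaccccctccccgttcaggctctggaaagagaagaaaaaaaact
HAT1: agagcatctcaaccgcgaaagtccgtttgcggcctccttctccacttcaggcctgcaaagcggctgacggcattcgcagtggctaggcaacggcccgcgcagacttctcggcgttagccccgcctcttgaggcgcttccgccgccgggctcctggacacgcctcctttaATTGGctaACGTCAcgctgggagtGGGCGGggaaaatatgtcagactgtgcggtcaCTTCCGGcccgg
In the 250-base windows of the RefSeq table, which reach 13 bases past the printed stretches into the first exon, CREBBP held 3 GC boxes, of which a pair overlap by a base, and none of the other motifs. HAT1 held 1 GC box, 1 CCAAT box, 1 TGACGT and 1 CCGGAAG, none overlapping another. GGGCGG is in 42.6% of the 35116 windows of that length in the table, CCAAT in 32%, TGACGT in 7.1%, CCGGAAG in 8.52% and CACGTG in 6.34%. Elsewhere among the members, TGACGT matched in the windows of KAT5 and KAT7, and the window of EP300 matched none of the 5 motifs. GC content of these windows was 72.4% for CREBBP and 64% for HAT1, and among the other members with a window it was lowest for KAT7 (56.4%) and KAT2A (58.8%), with 80.8% for KAT2B and 76.8% for EP300, where the median window has 58%. Unlike those of CREBBP and HAT1, the windows of these other members lie largely in annotated exons. All 250 bases were exonic for EP300, KAT2B and KAT5, 187 for KAT2A and 184 for KAT7. Another CREBBP window, also exonic throughout (chr16:3880121-3880370), had 84% and 4 GC boxes. Windows of KAT6B had 61.2%, 68% and 82%, the last with 10 GC boxes, and held 187, 250 and 132 exonic bases. No window of KAT6A or KAT8 was examined. A match is a description of letters and not a binding site.

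Between 31.2 and 85.9 M reads were counted per library. Libraries differed by more than their groups. Levels are given as CPM, counts divided by library size in M. Sizes were scaled by TMM except for cell type markers, CDKN2A and NKX2-1 among them, which use library totals. The 10 mesenchymal triple-negative markers (VIM, CAV1 and others) summed to 5949 to 7961 CPM outside replicates 1 and 2 of the knockdown experiment. In those replicates they summed to 1477 to 1591 CPM. CDKN2A, an inhibitor of the cell cycle whose gene is deleted in MDA-MB231, stood at 140.4 to 184 CPM in those 6 libraries, at up to 24.1 CPM in replicate 3 and at 0 to 0.0345 CPM in the drug experiments. NKX2-1, a lung lineage factor, stood at 34.5 to 64.6 CPM in the Nexturastat A experiment and at 0.734 to 1.52 CPM in the HPOB and Tubastatin A experiment. Each experiment was fitted alone, with replicate 3 of the hairpins kept apart. Whether all libraries are of the labelled line was not tested.

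**Figure D1:**
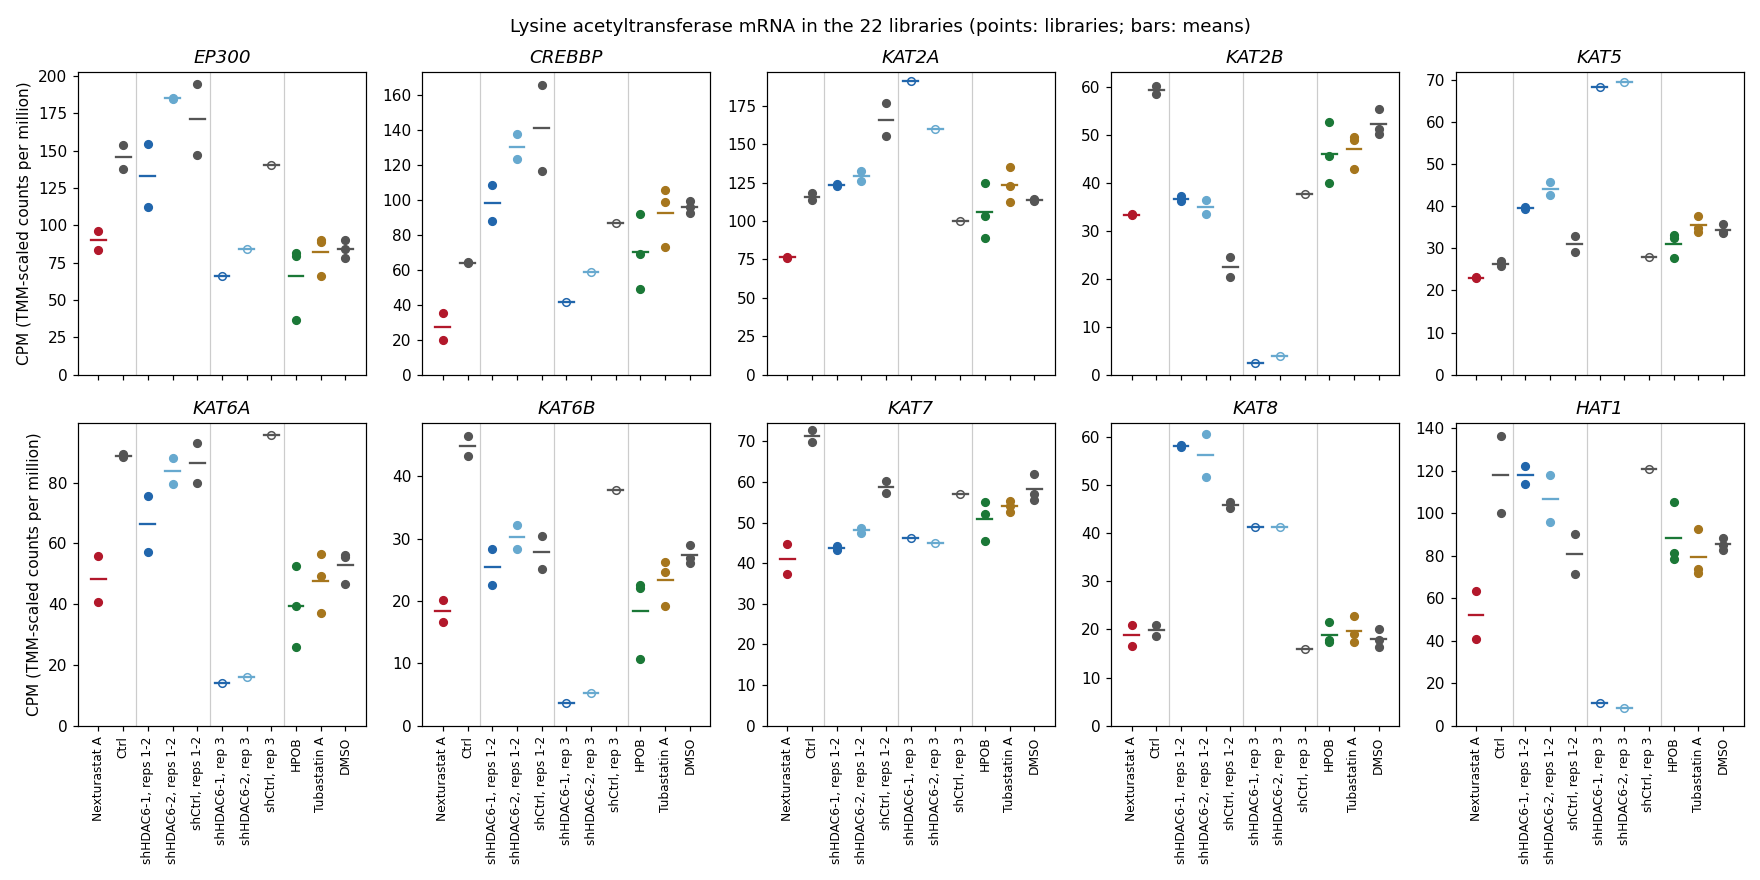
CPM of each acetyltransferase (vertical axes, from 0) in the 22 libraries, by group along the horizontal axes; points are libraries, bars group means and open points replicate 3 of the knockdown experiment. EP300 stood at 83.6 and 96.3 CPM with Nexturastat A against 154 and 138 CPM in Ctrl, and KAT2B at 2.53 and 3.88 CPM in replicate 3 of the hairpins against 37.8 CPM in shCtrl.

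Levels of different genes were compared as CPM per kilobase of the longest annotated transcript. KAT2A was the most abundant and KAT6B the least in the controls of every experiment. KAT2A averaged 37.3 CPM per kb ± 1.11 in Ctrl (SD, n = 2), 53.4 ± 4.84 in shCtrl replicates 1 and 2 (SD, n = 2) and 36.6 ± 0.163 in DMSO (SD, n = 3). KAT6B averaged 5.37 CPM per kb ± 0.272 in Ctrl (SD, n = 2), 3.33 ± 0.449 in shCtrl (SD, n = 2) and 3.27 ± 0.179 in DMSO (SD, n = 3). In Ctrl the order below KAT2A was HAT1, EP300, KAT2B, KAT5, KAT6A, KAT8, KAT7 and CREBBP, and only KAT8 and KAT7 overlapped as neighbours. In DMSO the order was HAT1, KAT5, KAT2B, CREBBP, EP300, KAT8, KAT7 and KAT6A, with overlap between CREBBP and EP300 and between KAT7 and KAT6A. KAT6A and KAT6B have annotated exons that together far exceed their longest transcript, 24175 against 9254 bases and 32495 against 8348 bases, so per kilobase of all exons their levels would be lower.

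The ratio of EP300 to CREBBP per kilobase separated the experiments. It was 4.78 and 3.08 with Nexturastat A against 2.69 and 2.44 in Ctrl, between 1.32 and 1.82 in the 9 knockdown libraries, and between 0.853 and 1.29 in the 9 libraries of HPOB, Tubastatin A and DMSO. Both Nexturastat A libraries were above both Ctrl libraries in this ratio, and no library of the last experiment reached the lowest of the knockdown experiment. The gene EP300 overlaps its antisense gene EP300-AS1 over 5489 bases, KAT5 overlaps RNASEH2C, KAT7 overlaps FAM117A, and HAT1 overlaps SLC25A12, each time on the opposite strand. These overlaps are of whole genes with their introns. The sources used here do not give the strand setting of the counting. Without it, reads in any bases that exons of both genes share cannot be told apart.

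With Nexturastat A, mRNA of most of the acetyltransferases was lower. Of the 10, 8 were called lower and 0 higher than Ctrl, where a call is an adjusted p under 0.05 in edgeR's quasi-likelihood test with Benjamini-Hochberg adjustment over the 16678 genes tested. The background was 15.5% of genes called lower and 21.1% called higher. The median log2 fold change of the 10 was -0.81, and that of all genes 0.03. In these bulk libraries fewer cells of a type and less RNA per cell cannot be told apart.

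Both general coactivators were lower. EP300 stood at 83.6 and 96.3 CPM with Nexturastat A against 154 and 138 CPM in Ctrl, a log2 fold change of -0.70 ± 0.13 (SE, edgeR adjusted p = 0.00859). CREBBP stood at 19.7 and 35.2 CPM with Nexturastat A against 64.5 and 63.7 CPM in Ctrl, -1.22 ± 0.26 (SE, edgeR adjusted p = 0.0136). The groups did not overlap for either gene, which held for 9 of the 10 members and for 35.2% of all genes in this direction (0 members and 39% of genes in the other), and the libraries given Nexturastat A differed from each other more for CREBBP than for EP300.

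The SAGA and ATAC enzymes fell with little spread between replicates. KAT2A stood at 76.9 and 76.2 CPM with Nexturastat A against 118 and 113 CPM in Ctrl, a log2 fold change of -0.60. KAT2B stood at 33.4 and 33.5 CPM with Nexturastat A against 58.6 and 60.3 CPM in Ctrl, a log2 fold change of -0.83. Their edgeR adjusted p-values were 0.00904 and 0.00427. For both genes every library given Nexturastat A was below every Ctrl library.

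HAT1, the enzyme of new histone H4, stood at 40.7 and 63.2 CPM with Nexturastat A against 100.2 and 136 CPM in Ctrl, a log2 fold change of -1.18 ± 0.24 (SE, edgeR adjusted p = 0.0124). The groups did not overlap, and the replicates spread widely in both.

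Of the MYST enzymes, which share a catalytic domain, 3 of 5 fell. KAT6B had the largest fold change of the 10, at 16.7 and 20.2 CPM with Nexturastat A against 46.5 and 43.2 CPM in Ctrl, -1.28 ± 0.16 (SE, edgeR adjusted p = 0.00234). Its paralog KAT6A stood at 40.8 and 56.0 CPM with Nexturastat A against 89.3 and 88.3 CPM in Ctrl, a log2 fold change of -0.88. KAT7 stood at 37.4 and 44.8 CPM with Nexturastat A against 69.9 and 72.8 CPM in Ctrl, a log2 fold change of -0.80. No library given Nexturastat A reached a Ctrl library for any of these genes.

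KAT5 and KAT8, the remaining MYST enzymes, were not called. KAT5 stood at 22.9 and 23.2 CPM with Nexturastat A against 26.9 and 25.7 CPM in Ctrl, with a log2 difference between -0.53 and 0.15 (95% interval, edgeR adjusted p = 0.327). KAT8 stood at 20.8 and 16.7 CPM with Nexturastat A against 21.0 and 18.7 CPM in Ctrl, with an interval of -0.51 to 0.34 (edgeR adjusted p = 0.744). These non-calls depend on whether removing trends with GC content and transcript length also shifts the scaling of libraries. Both versions below remove the same trends and differ in that scaling. EP300, for example, was at -0.95 in the planned version and -0.65 in the centred one. With the trends removed as planned, all 10 members were called lower, KAT5 at -0.69 (edgeR adjusted p = 0.00676) and KAT8 at -0.57 (edgeR adjusted p = 0.0304). When each trend was centred so that the scaling of libraries was kept, a version added after the first had been seen, 8 were called and KAT5 had an edgeR adjusted p of 0.0524 and KAT8 of 0.24.

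**Figure D2:**
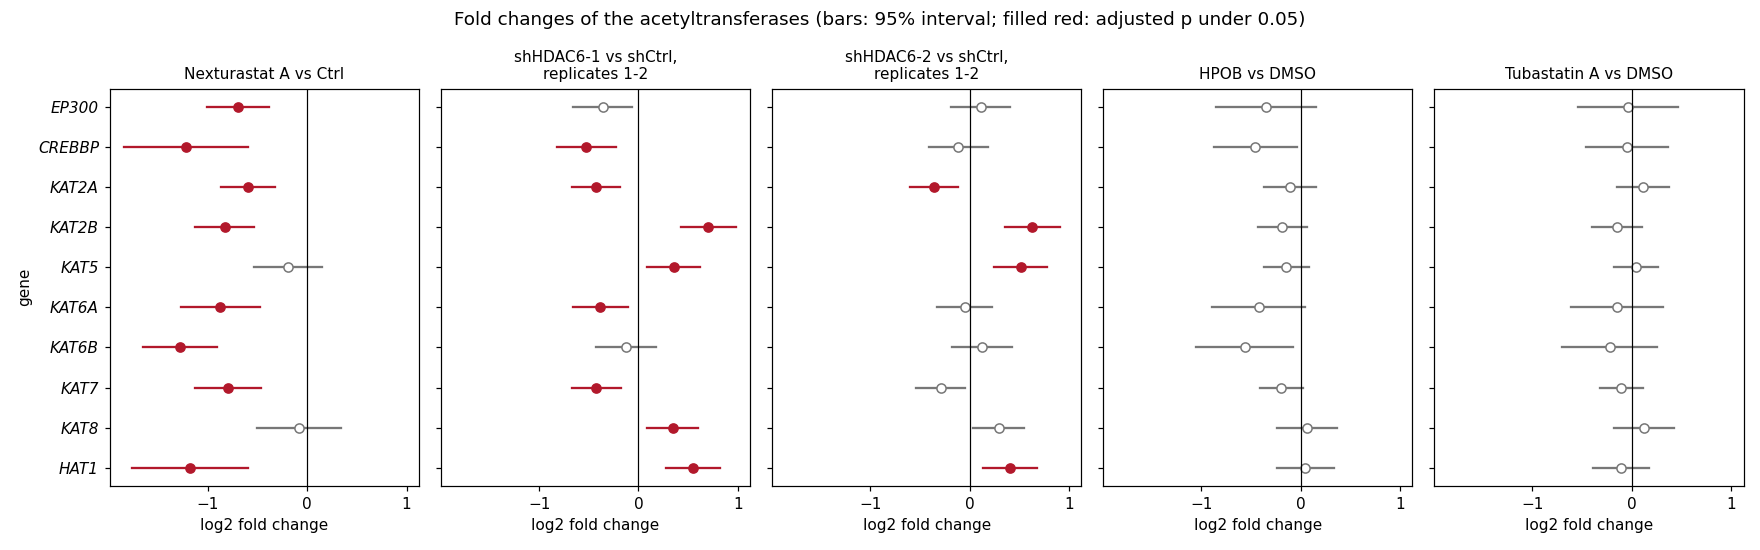
Log2 fold changes of the 10 genes with 95% intervals (horizontal axes) in the 5 replicated comparisons; filled red points have an edgeR adjusted p under 0.05. With Nexturastat A the 8 called genes lie between -0.60 and -1.28, and with HPOB and Tubastatin A no gene is called.

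More partners of the enzymes were called lower than higher with Nexturastat A, where 15.5% of all genes were lower and 21.1% higher. Of the TIP60 complex 7 of 17 genes were called lower and 0 higher, led by the bromodomain subunit BRD8 at -1.33 and the scaffold TRRAP at -0.77, although KAT5 itself was not called. Of the MSL and NSL complexes 7 of 11 were called lower and 0 higher, with the scaffold MSL1 at -1.05 and KANSL3 at -0.72. Of the BRPF and JADE group 3 of 8 fell (JADE2 -1.25 and BRD1 -1.06 the lowest of those called), of SAGA and ATAC 4 of 19 (TADA1 -0.67, TADA2A -0.67), a share near the background, and of the partners of HAT1 3 of 5, with the histone chaperone NASP at -1.27 and RBBP4 at -0.79. None of these lists had a gene called higher.

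Partners of p300 and CBP moved both ways. CITED2, which competes with other factors for a binding domain of p300 and CBP, averaged 266 CPM with Nexturastat A against 75.3 CPM in Ctrl, a log2 fold change of 1.82 (edgeR adjusted p = 0.000876). CITED1, of the same family, was called higher at 2.19 from a low level, 1.55 CPM with Nexturastat A against 0.339 CPM in Ctrl. The nuclear receptor coactivator NCOA2, at -1.95, and the CREB coactivator CRTC3, at -0.76, were the lowest of the 5 of 11 called lower. Of other protein acetyltransferases 5 of 14 fell, led by TAF1 at -0.79 and CLOCK at -0.67, and NAA10, a catalytic subunit of amino-terminal acetylation, rose by 0.67. ATAT1, which acetylates the tubulin lysine that HDAC6 deacetylates, was not called, at 18.7 and 17.7 CPM with Nexturastat A against 24.4 and 19.8 CPM in Ctrl. Of genes that supply acetyl-CoA 4 of 8 fell, among them the citrate carrier SLC25A1 at -0.83 and DLAT at -0.66.

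Fewer members were called when either Ctrl library was left out, which leaves 1 Ctrl library that is assumed to vary like the pair given Nexturastat A. Without Ctrl replicate 1, 2 members were called lower (KAT6B and HAT1) and 1781 genes in all, and without Ctrl replicate 2, 1 member (KAT6B) and 1921 genes, against 6112 genes in the full comparison, while the log2 fold changes of the 8 then lay between -0.58 and -1.4. Changes also followed transcript length, with a median over all genes of 0.24 in the shortest quintile and -0.14 in the longest, which holds EP300, CREBBP, KAT6A, KAT6B and KAT7. Markers of airway epithelium, 6 genes, summed to 35.8 to 43.6 CPM with Nexturastat A and 221 to 329 CPM in Ctrl. Those of fibroblasts, 4 genes, summed to 39.3 to 40.3 CPM with Nexturastat A and 10.2 to 13.1 CPM in Ctrl. Few genes made these sums. Over this experiment the airway sum was mostly MUC5AC (0.621 to 245 CPM) and NKX2-1 (34.5 to 64.6 CPM). The fibroblast sum was mostly COL1A1 (6.22 to 27.0 CPM) and PDGFRB (3.95 to 12.4 CPM). The part of these markers and of the length trend in the result was not tested.

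**Figure D3:**
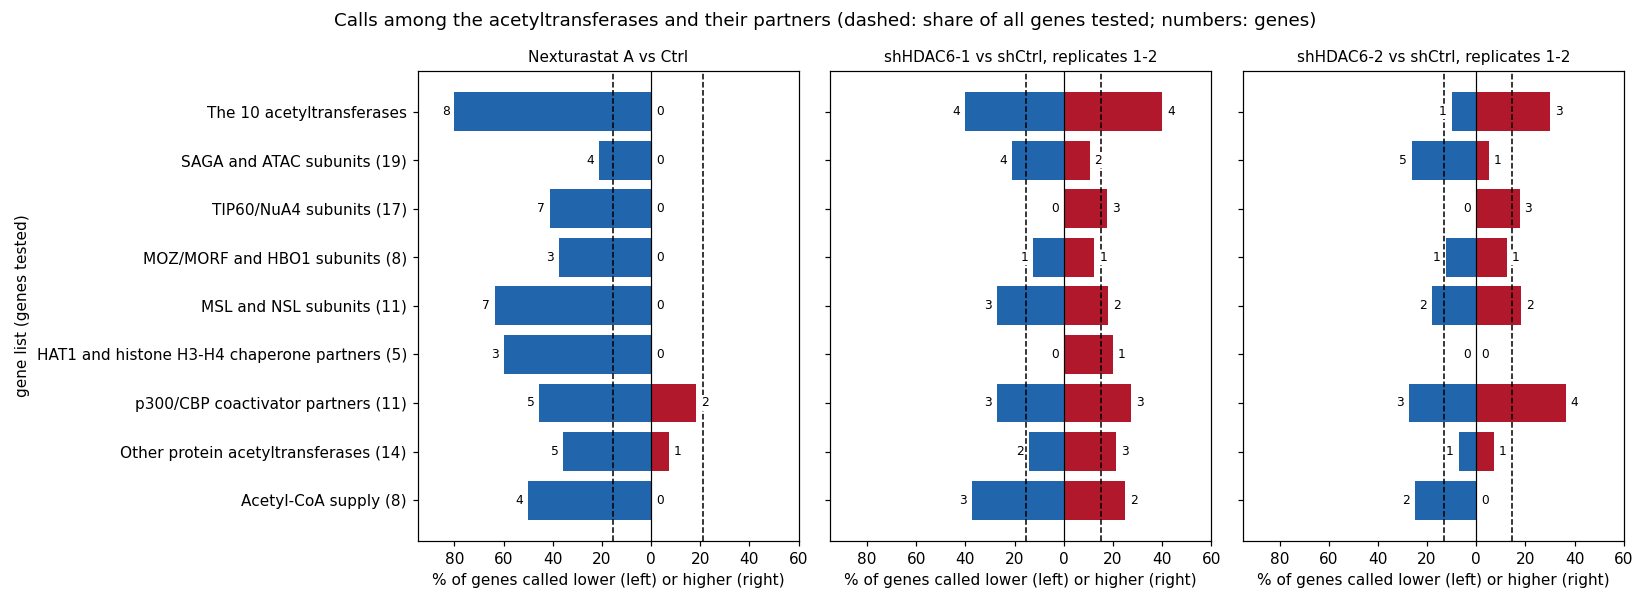
Share of genes called lower (blue, left) or higher (red, right) in the 10 acetyltransferases and in 8 lists of partners and related genes, with dashed lines at the share over all genes tested. With Nexturastat A, 8 of the 10 were called lower and 0 higher, where 15.5% of all genes were lower.

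The hairpins lowered their target. HDAC6 stood at 12.8 and 11.99 CPM with shHDAC6-1 and at 12.4 and 14.0 CPM with shHDAC6-2 against 45.6 and 52.9 CPM in shCtrl, in replicates 1 and 2, log2 fold changes of -1.99 and -1.90. Both hairpins are set against the same shCtrl libraries.

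With shHDAC6-1, 4 of the 10 acetyltransferases were called higher and 4 lower, where 15.3% of the 17702 genes tested were called higher and 15.2% lower (30.5% in all). With shHDAC6-2, 3 were called higher and 1 lower, where 14.4% were called higher and 13.2% lower (27.6% in all). With shHDAC6-1, 4 members lay above shCtrl without overlap and 4 below, as did 31.7% and 33.6% of all genes, and with shHDAC6-2 4 lay above and 2 below, as did 30.7% and 30.2%. The 8 of 10 called with shHDAC6-1 stood well above 30.5%, and the 4 of 10 called with shHDAC6-2 lay nearer to 27.6%. KAT2B and HAT1, lower with Nexturastat A, were higher here.

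KAT2B stood at 36.2 and 37.2 CPM with shHDAC6-1 and at 36.4 and 33.5 CPM with shHDAC6-2 against 24.6 and 20.5 CPM in shCtrl. Its log2 fold changes were 0.70 ± 0.14 and 0.63 ± 0.13 (SE, edgeR adjusted p = 0.000372 and 0.00109), and every hairpin library was above every shCtrl library. HAT1 stood at 114 and 122 CPM with shHDAC6-1 and at 118 and 96.0 CPM with shHDAC6-2 against 90.05 and 71.4 CPM in shCtrl, with log2 fold changes of 0.55 and 0.41 (edgeR adjusted p = 0.00293 and 0.024). KAT5 stood at 39.4 and 39.8 CPM with shHDAC6-1 and at 42.6 and 45.7 CPM with shHDAC6-2 against 29.02 and 32.8 CPM in shCtrl, with log2 fold changes of 0.35 and 0.51 (edgeR adjusted p = 0.0378 and 0.00402). All 3 genes were called with both hairpins.

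KAT2A was called lower with both hairpins, at 123.1 and 124.3 CPM with shHDAC6-1 and 126 and 132.6 CPM with shHDAC6-2 against 155 and 177 CPM in shCtrl. Its log2 fold changes were -0.43 and -0.36 (edgeR adjusted p = 0.00736 and 0.0226). CREBBP, at 108 and 87.9 CPM with shHDAC6-1 against 116 and 166 CPM in shCtrl, was called with that hairpin alone, at -0.52 (edgeR adjusted p = 0.00805), and had 123.2 and 137 CPM with shHDAC6-2 (-0.11, edgeR adjusted p = 0.601).

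The MYST enzymes other than KAT5 split. KAT7 stood at 44.3 and 43.3 CPM with shHDAC6-1 and 48.7 and 47.4 CPM with shHDAC6-2 against 57.4 and 60.2 CPM in shCtrl, with log2 fold changes of -0.42 and -0.29 (edgeR adjusted p = 0.00931 and 0.0736). KAT8 stood at 58.01 and 58.4 CPM with shHDAC6-1 and 51.7 and 60.7 CPM with shHDAC6-2 against 45.3 and 46.5 CPM in shCtrl, with log2 fold changes of 0.34 and 0.29 (edgeR adjusted p = 0.0367 and 0.0797). Both genes had no overlap with shCtrl under either hairpin, KAT7 below and KAT8 above, and were called with shHDAC6-1 alone. KAT6A stood at 75.6 and 57.1 CPM with shHDAC6-1 and 88.0 and 79.4 CPM with shHDAC6-2 against 79.9 and 93.1 CPM in shCtrl, and was called lower with shHDAC6-1 (-0.38, edgeR adjusted p = 0.0341) and not with shHDAC6-2 (-0.05, edgeR adjusted p = 0.83). KAT6B stood at 28.3 and 22.6 CPM with shHDAC6-1 and 32.3 and 28.4 CPM with shHDAC6-2 against 25.2 and 30.5 CPM in shCtrl. Its libraries overlapped shCtrl with both hairpins. The difference between the hairpins was not tested. EP300 was called with neither, at 155 and 112 CPM with shHDAC6-1 and 185 and 185 CPM with shHDAC6-2 against 147 and 195 CPM in shCtrl.

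Among the partners, YEATS4, a histone-reading subunit of the TIP60 complex, rose by 1.59 with shHDAC6-1 and 1.35 with shHDAC6-2. MSL2 of the MSL complex rose by 1.02 and 0.92, TADA2B of SAGA by 0.90 and 1.01, and NAA15, the scaffold partner of NAA10, by 0.84 and 0.88. TADA2A of ATAC fell by 0.66 and 0.66, the acetyl-CoA synthetase ACSS1 by 0.80 and 0.84, and the CREB coactivator CRTC1 by 0.87 and 0.69. Of the other partners called with both, SUPT20H of SAGA fell by 0.66 and 0.58, WDR5 and KANSL3 of the NSL complex by 0.53 and 0.52 and by 0.54 and 0.38, and NAT10, an acetyltransferase of RNA, by 0.55 and 0.48, while JADE3 rose by 0.47 and 0.64 and CRTC3 by 0.45 and 0.75. Over the lists, TIP60 subunits were called 3 higher and 0 lower of 17 with each hairpin, SAGA and ATAC 2 higher and 4 lower of 19 with shHDAC6-1 and 1 higher and 5 lower with shHDAC6-2. Partners of p300 and CBP were called 3 higher and 3 lower of 11 with shHDAC6-1 and 4 higher and 3 lower with shHDAC6-2, and MSL and NSL subunits 2 higher and 3 lower of 11 with shHDAC6-1 and 2 higher and 2 lower with shHDAC6-2. Against 15.3% of all genes higher and 15.2% lower with shHDAC6-1, and 14.4% and 13.2% with shHDAC6-2, shares such as 3 of 17, 4 of 19 and 2 of 11 lie near the background. ATAT1 was called with neither hairpin.

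Changes in these 6 libraries followed GC content. Over all genes in the lowest quintile of GC content the median log2 fold change was 0.21 with shHDAC6-1 and 0.12 with shHDAC6-2, and in the highest quintile it was -0.32 and -0.23. HAT1, in the lowest quintile, and KAT2A, in the highest, moved with the trend, and KAT5, in the highest, against it. With trends in GC content and length removed as planned, KAT2A was at -0.12 and -0.13 and not called with either hairpin (edgeR adjusted p = 0.127 and 0.0844). In the centred version, added after seeing the data, it was at -0.19 and -0.18 and called with both (edgeR adjusted p = 0.0114 and 0.0164). Leaving out 1 library leaves 1 in its group, assumed to vary like the others. Without shHDAC6-1 replicate 2, 0 members were called lower with that hairpin, and without shCtrl replicate 2, 1. Without shCtrl replicate 2 or shHDAC6-2 replicate 1, KAT2A was no longer called with shHDAC6-2 and 2 members were called higher. Between 2 and 4 members were called higher with shHDAC6-1, 2 of them without shCtrl replicate 1 or either shHDAC6-1 library. A fit of all 9 knockdown libraries called 0 genes, and KAT2B, at -0.28 and -0.33, and HAT1, at -0.33 and -0.50, had the opposite sign. The 5 markers of embryonic or kidney-derived lines summed to 988 to 1186 CPM with shHDAC6-1 and 1210 to 1281 CPM with shHDAC6-2 against 772 to 840 CPM in shCtrl, and their part in these results was not tested.

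**Figure D4:**
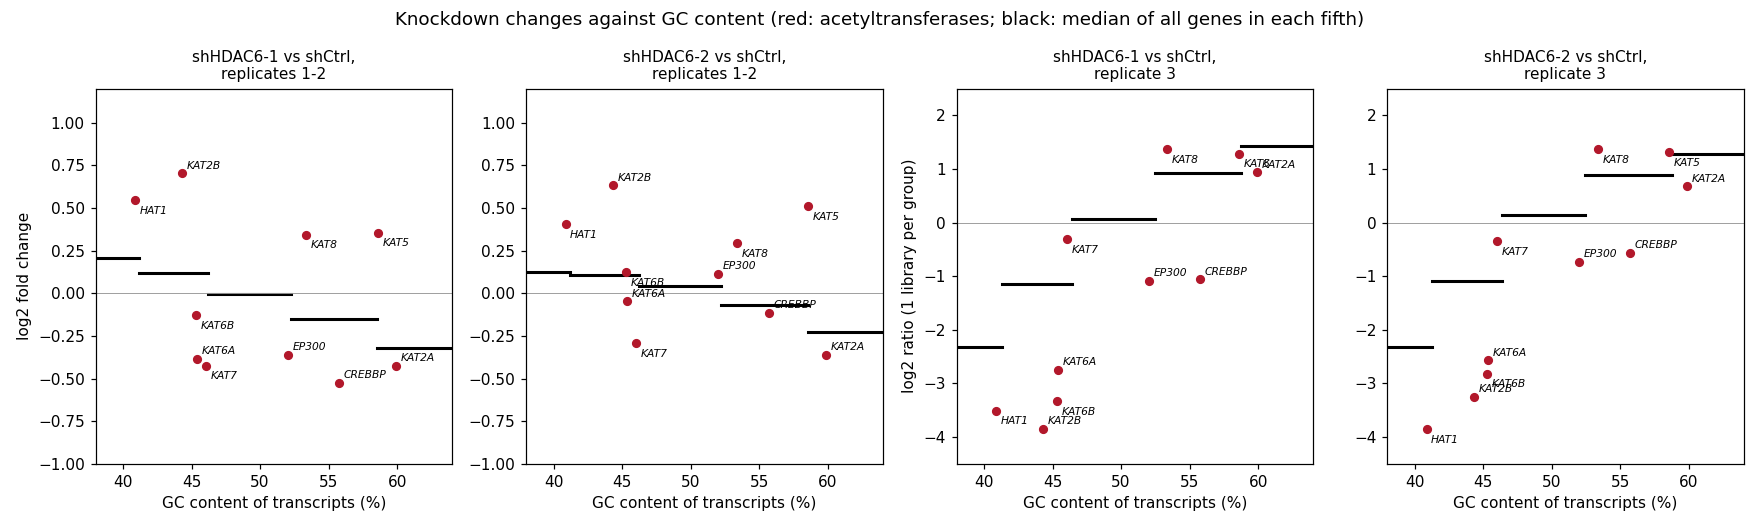
Log2 fold change (left pair, replicates 1 and 2) or log2 ratio of single libraries (right pair, replicate 3) of the acetyltransferases against the GC content of their transcripts, with black bars at the median of all genes in each of 5 bins of GC content. The medians slope down in replicates 1 and 2 and up in replicate 3, where HAT1 lies at -3.52 and -3.87.

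Replicate 3 went the other way from replicates 1 and 2 for KAT2A, KAT2B and HAT1. KAT5 and KAT8 were higher and KAT7 lower with both hairpins in either set of libraries. These directions are against shCtrl, with no trend in GC content or length removed. Replicate 3 has 1 library per group, so no test was made and the values compare single libraries. HDAC6 stood at 9.63 CPM with shHDAC6-1 and 12.1 CPM with shHDAC6-2 against 22.7 CPM in shCtrl. With shHDAC6-1, 6 members were at least 2-fold lower and 2 higher, and with shHDAC6-2 4 were lower and 2 higher. Of all 15872 genes, 32.1% and 31.1% were lower by that much and 28.2% and 26.7% higher.

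KAT2B stood at 2.53 CPM with shHDAC6-1 and 3.88 CPM with shHDAC6-2 against 37.8 CPM in shCtrl, 6.7% and 10.3% of it. HAT1 stood at 10.5 CPM with shHDAC6-1 and 8.26 CPM with shHDAC6-2 against 120.7 CPM in shCtrl, 8.71% and 6.84% of it. KAT6A stood at 14.2 CPM with shHDAC6-1 and 16.02 CPM with shHDAC6-2 against 95.6 CPM in shCtrl, and KAT6B at 3.66 and 5.27 CPM with the same hairpins against 37.7 CPM in shCtrl. These 4 were far lower in both hairpin libraries. KAT5 stood at 68.4 CPM with shHDAC6-1 and 69.6 CPM with shHDAC6-2 against 27.9 CPM in shCtrl, and KAT8 at 41.3 and 41.2 CPM with the same hairpins against 15.9 CPM in shCtrl. Both were at least 2-fold higher with each hairpin. EP300 stood at 65.9 CPM with shHDAC6-1 and 84.1 CPM with shHDAC6-2 against 140.0 CPM in shCtrl, and CREBBP at 41.7 and 58.7 CPM with the same hairpins against 86.6 CPM in shCtrl. KAT2A stood at 191 CPM with shHDAC6-1 and 160 CPM with shHDAC6-2 against 99.9 CPM in shCtrl. KAT2A and KAT7 were within 2-fold with both hairpins. The ratio of KAT2A to its paralog KAT2B per kilobase was 118 with shHDAC6-1 and 64.1 with shHDAC6-2 against 4.11 in shCtrl, while replicates 1 and 2 gave ratios of 5.28 and 5.19 for shHDAC6-1 and of 5.39 and 6.15 for shHDAC6-2 against 9.80 and 13.4 in shCtrl. Against shCtrl the ratio was higher with the hairpins in replicate 3 and lower in replicates 1 and 2. The transcript of KAT2A has 59.9% GC and that of KAT2B 44.3%, and the trend with GC content also reversed between these sets. The part of that trend in the ratio was not tested.

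In replicate 3 the medians of all genes were -2.32 with each hairpin in the lowest quintile of GC content and 1.42 (shHDAC6-1) and 1.29 (shHDAC6-2) in the highest, the reverse of the slope in replicates 1 and 2. HAT1, KAT2B and KAT2A lay below the median of their own quintile with both hairpins. KAT2A, in the highest quintile, had log2 ratios of 0.94 (shHDAC6-1) and 0.68 (shHDAC6-2). In replicates 1 and 2 it was also below the medians of that quintile, at -0.43 against -0.32 and -0.36 against -0.23. The part of the GC trend in the values of these genes was not tested. Transcript length had a trend too, with medians of 0.62 (shHDAC6-1) and 0.56 (shHDAC6-2) in the shortest quintile and -1.14 and -1.05 in the longest. EP300 and CREBBP, both in the longest quintile, had log2 ratios of -1.09 and -1.05 with shHDAC6-1, near its median. With shHDAC6-2 they were at -0.73 and -0.56, above its median. Against GC content both lay below the medians of their quintiles with shHDAC6-1, 0.07 for EP300 and 0.93 for CREBBP. KAT6A, KAT6B and KAT7, also in the longest quintile, had -2.75, -3.36 and -0.31 with shHDAC6-1. KAT5 (1.29 with shHDAC6-1, 1.32 with shHDAC6-2) and KAT8 (1.38 with each) were above the GC medians of their quintile, 0.93 and 0.88. KAT7, at -0.31 and -0.34, was above the GC medians of its quintile, -1.14 and -1.09. In replicates 1 and 2 it was below them (0.12 and 0.11). The part of either trend in these values was not tested. CDKN2A ranged from 0 to 24.1 CPM among these 3 libraries, and was highest with shHDAC6-2. The 5 markers of embryonic or kidney-derived lines summed to 77.2 CPM with shHDAC6-2, 35.7 CPM with shHDAC6-1 and 32.9 CPM in shCtrl. The 10 mesenchymal markers summed to 6970, 6538 and 7239 CPM in the same order. The part of these markers in the values of replicate 3 was not tested.

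None of the 10 members was called with HPOB or with Tubastatin A, which share the DMSO libraries. Of 15338 genes tested by edgeR, 4 were called with HPOB (0.0261%) and 0 with Tubastatin A (0%), where 1588 and 757 genes had an unadjusted p under 0.05 and DESeq2 called 120 and 23. EP300 stood at 81.5, 36.9 and 79.1 CPM with HPOB and 88.9, 66.2 and 90.4 CPM with Tubastatin A against 83.9, 78.0 and 90.1 CPM in DMSO. HPOB replicate 2 was the library that stood low, and without it the log2 fold change of EP300 with HPOB was -0.07, against -0.35 with it.

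CREBBP stood at 91.9, 48.7 and 69.0 CPM with HPOB and 98.9, 72.9 and 105.6 CPM with Tubastatin A against 99.3, 92.3 and 95.8 CPM in DMSO. With HPOB all 3 libraries were below DMSO, at -0.46 with a 95% interval of -0.87 to -0.04 (edgeR adjusted p = 0.469), and the interval with Tubastatin A was -0.46 to 0.36. KAT6B likewise had all 3 HPOB libraries below DMSO (22.6, 10.7 and 22.2 CPM with HPOB against 28.96, 26.9 and 26.1 CPM in DMSO), with a log2 fold change of -0.56 (edgeR adjusted p = 0.466). In HPOB, CREBBP, KAT5, KAT6B and KAT7 had no overlap with DMSO, which held for 10.4% of all genes in this direction, and in Tubastatin A KAT2B and KAT7 had none, where 7.55% did (0 members lay above DMSO without overlap with either compound, where 11.2% and 9.15% of genes did).

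Among members that fell with Nexturastat A, HAT1 had an interval of -0.24 to 0.33 with HPOB and -0.39 to 0.18 with Tubastatin A, and KAT2B -0.43 to 0.07 and -0.40 to 0.10. ATAT1 was not called with either compound.

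Treated libraries lay on both sides of DMSO for KAT2A and HAT1. KAT2A stood at 104, 89.05 and 125 CPM with HPOB and 112, 135 and 123 CPM with Tubastatin A against 113, 114 and 114 CPM in DMSO, and HAT1 at 81.1, 105 and 78.3 CPM with HPOB and 73.6, 92.5 and 71.9 CPM with Tubastatin A against 85.2, 88.5 and 82.6 CPM in DMSO. KAT2B stood at 45.7, 52.7 and 39.99 CPM with HPOB and 49.1, 42.9 and 49.6 CPM with Tubastatin A against 50.4, 51.4 and 55.4 CPM in DMSO, and KAT5 at 32.6, 27.7 and 33.2 CPM with HPOB and 34.7, 37.8 and 34.0 CPM with Tubastatin A against 33.8, 33.8 and 35.9 CPM in DMSO. KAT7 stood at 55.0, 45.4 and 52.1 CPM with HPOB and 52.7, 54.0 and 55.3 CPM with Tubastatin A against 62.0, 55.5 and 57.0 CPM in DMSO, and KAT8 at 17.4, 17.8 and 21.5 CPM with HPOB and 17.3, 22.7 and 19.0 CPM with Tubastatin A against 17.9, 16.3 and 20.1 CPM in DMSO. KAT8 overlapped DMSO with both compounds. KAT6A stood at 52.5, 25.8 and 39.5 CPM with HPOB and 56.4, 37.1 and 49.2 CPM with Tubastatin A against 56.2, 46.5 and 55.4 CPM in DMSO. Replicate 2 of HPOB was the lowest of its group for EP300, CREBBP, KAT2A, KAT5, KAT6A, KAT6B and KAT7 and the highest for KAT2B and HAT1. Without it the log2 fold changes with HPOB were -0.26 for CREBBP and -0.29 for KAT6B. Libraries HPOB 2, HPOB 3 and Tubastatin A 2 showed a trend with transcript length, with median log2 differences from the mean of DMSO of 0.22, 0.23 and 0.30 in the shortest quintile of genes and -0.21, -0.19 and -0.24 in the longest. When these 3 were left out together, a choice made after seeing the data, 208 genes were called with each compound and 1 member, HAT1 with Tubastatin A, at -0.24 (edgeR adjusted p = 0.0356). This leaves 1 HPOB library, which is assumed to vary like the other groups.

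Whether Nexturastat A acted differently from the other compounds on these genes was tested as an interaction over 13 libraries. Doses of HPOB and Tubastatin A are not given, and the control cells differed between the experiments, so this compares effects as measured and not compounds at matched dose. The effect of Nexturastat A was lower than that of HPOB for 3 members, KAT2B, KAT7 and HAT1, where 7.69% of 17083 genes were, and higher for 0, where 9.81% were. It was lower than that of Tubastatin A for 6, CREBBP, KAT2A, KAT2B, KAT6B, KAT7 and HAT1, where 8.46% were, and higher for 0, where 10.6% were. Among the members the largest difference against HPOB was that of HAT1, -1.18 (edgeR adjusted p = 0.00635), and against Tubastatin A those of CREBBP, -1.12, and HAT1, -1.02 (edgeR adjusted p = 0.0324 and 0.014). For EP300 the intervals were -1.02 to 0.43 and -1.33 to 0.13, and neither was called. KAT5, KAT6A and KAT8 were not called either, at 0.00, -0.40 and -0.10 against HPOB and -0.18, -0.67 and -0.14 against Tubastatin A. These counts rest on single libraries: leaving out 1 at a time gave between 1 and 5 members lower against HPOB, with 1 left without Ctrl replicate 1, Ctrl replicate 2, Nexturastat A replicate 1 or DMSO replicate 2. Against Tubastatin A it gave between 0 and 7, with 0 left without Ctrl replicate 2 and 1 without Nexturastat A replicate 1.

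Across the 22 libraries, after centring within each experiment and with replicate 3 centred apart, genes most like EP300 in log2 CPM were TRRAP (Pearson r = 0.967), ARNT (0.957) and ATP11A (0.949), and those most like CREBBP were BRD3 (0.974), KDM2B (0.963) and ZNF609 (0.953), among 9651 genes. EP300 and CREBBP correlated with each other at 0.89. These are descriptions over libraries that share depth, length and GC trends, and carry no test.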

How the data were processed

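Each deposited file lists, for 1 library, the whole-number count of reads for every gene symbol, as the authors made it, from RNA of cells labelled MDA-MB231. Per the submitters' processing notes, the authors used Trim Galore 0.6.7, STAR 2.7.9a, featureCounts 2.0.3 and DESeq2 1.30.1, with GRCh38. Annotation and strand setting are not stated there. Each experiment was fitted alone (the interaction over the 13 libraries of the drug experiments) with edgeR 4.0.16 in R 4.3.3 (TMM factors, filterByExpr with a minimum count of 10 and a minimum total of 15, quasi-likelihood F test), and p-values were adjusted by Benjamini-Hochberg over all genes tested. CPM use those TMM factors, except for cell type markers, whose CPM use library totals. Replicate 3 of the knockdown experiment was fitted with no test, over genes with at least 30 counts in all. GENCODE release 29 gave length, GC content and position for 24599 of 26485 symbols. Members and gene lists were chosen with earlier results of these data known. All 10 members, HDAC6 and ATAT1 were tested in every replicated comparison. Genes named from partner lists are called genes of the 2 highest or 2 lowest fold changes of a list in a comparison, and not every such gene is printed. Alternatives were DESeq2 1.42.0 (size factors and Wald test), no filter, a replicate block, each library left out, 2 groups alone, all 9 knockdown libraries, and removal of GC and length trends (splines, 3 degrees of freedom), with limma 3.58.1 voom weights, centred trends and 3 libraries of the compound experiment left out together added after seeing the data. Tests were checked on simulated counts. Pairs of libraries of a group differed by more than sampling noise.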

Additional observations from a re-analysis of the deposited data

Results flagged for a closer look

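The effect of Nexturastat A differed from that of another compound in a test of the difference itself (an interaction term in edgeR). Against HPOB the log2 differences were -0.60 for KAT2B, -0.55 for KAT7 and -1.18 for HAT1. Against Tubastatin A they were -1.12 for CREBBP, -0.66 for KAT2A, -0.62 for KAT2B, -1.002 for KAT6B, -0.63 for KAT7 and -1.02 for HAT1. Doses of HPOB and Tubastatin A are not given and control cells differ between the experiments, so compound, dose and cells cannot be told apart.

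In the knockdown experiment 3 members went one way in every library of replicates 1 and 2 and the other way in replicate 3, a difference that was not tested. KAT2A was lower in replicates 1 and 2 and had log2 ratios of 0.94 (shHDAC6-1) and 0.68 (shHDAC6-2) in replicate 3. It lay below the median of all genes in its quintile of GC content in both sets. In replicate 3 those medians were 1.42 and 1.29. KAT2B was higher in replicates 1 and 2, with -3.90 and -3.28 in replicate 3, and HAT1 was higher, with -3.52 and -3.87.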

How the results depend on the processing

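Leaving out 1 library at a time, Nexturastat A called 1781 to 8922 genes and 1 to 8 members lower. The hairpin shHDAC6-1 called 3160 to 5999 genes, with 0 to 5 members lower and 2 to 4 higher, and shHDAC6-2 called 3470 to 4931 genes, with 0 to 2 lower and 2 to 3 higher. HPOB called 0 to 78 genes and Tubastatin A 0. The effect of Nexturastat A minus that of HPOB called 1603 to 3950 genes and 1 to 5 members lower, and minus that of Tubastatin A 1857 to 4262 genes and 0 to 7 members. The fit of all 9 knockdown libraries called 0 genes and 0 members higher or lower with either hairpin, and reversed KAT2A with shHDAC6-1 (0.10), KAT2B (-0.28 with shHDAC6-1, -0.33 with shHDAC6-2) and HAT1 (-0.33 and -0.50). The cause was not tested.

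With shHDAC6-2, where 1 member was called lower, DESeq2's Wald test called 2, the replicate block 2, and 2 groups alone 0. Trends in GC content and length removed as planned gave 7460 genes and 2 members lower, and the centred version 3. With Nexturastat A the planned version, which also shifts the scaling of libraries, called 7922 genes and all 10 members. The centred one, which keeps that scaling and was added after those calls were seen, called 6078 genes and 8 members. HPOB called 120 genes by DESeq2, 14 with no filter, 7 with the replicate block, 16 and 27 with the planned and centred trends removed, 54 by limma voom and 15 with 2 groups alone. Tubastatin A called 23 by DESeq2, 1 and 3 with those trends removed and 26 by limma voom. With 3 libraries left out together each compound called 208 genes, and Tubastatin A 1 member, with the 1 HPOB library left assumed to vary like the other groups.

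Same-numbered libraries correlated at 0.10 (2 pairs) in the Nexturastat A experiment, between -0.05 and 0.16 (6 pairs) in the knockdown and between -0.16 and 0.20 (9 pairs) with the other compounds, so the numbers were not taken as pairs. These are not correlations of whole log2 CPM, which was 0.9987 between the Ctrl libraries. Where groups have 2 libraries, replicates 1 and 2 gave the same value, so those pairs are not separate evidence. Members' own values were compared for their side of the threshold, and for direction only where either fit called them. By that rule 95 of 110 with Nexturastat A, 118 of 150 with shHDAC6-1 and 130 of 150 with shHDAC6-2 were kept. So were 180 of 180 with HPOB and 179 of 180 with Tubastatin A. For the effect of Nexturastat A minus that of HPOB 156 of 170 were kept, and minus that of Tubastatin A 138 of 170. Changes of sign between values that were not called count as kept. HAT1 with HPOB, for example, ranged from -0.10 to 0.13. EP300 was called lower with shHDAC6-1 in 7 of 15 alternatives.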
